A study of Rattus norvegicus with 8 samples.

Results

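Phase II conjugation enzymes attach a polar group to drugs, hormones, bile pigments and reactive metabolites. They were taken here as every array probe whose transcript accession maps to a rat gene symbol beginning with Ugt1, Ugt2, Sult, Mgst, Gsta, Gstm, Gstp, Gstt, Gstk, Gsto or Gstz. This gave 55 probes for 49 genes, of 30367 probes on the array, 18005 of which had a symbol. Liver RNA of 22-week-old male rats was labelled with Cy3 and hybridised to Agilent 1-colour arrays, one RNA to an array. The tested animals, described as having non-alcoholic fatty liver disease (NAFLD), had eaten a high-fat diet for 14 weeks (5 arrays, called high-fat 1 to 5). The others had eaten standard chow for the same 14 weeks (3 arrays, called chow 1 to 3). The labels give no strain and no diet composition, and do not say whether the samples of a diet came from separate animals or separate extractions, so p-values measure only the spread between these samples.

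UDP-glucuronosyltransferases (UGT) sit in the endoplasmic reticulum and transfer glucuronic acid from UDP-glucuronate; the Ugt1 genes share their last exons and differ in the first, whereas the Ugt2 genes are separate copies in a cluster. Sulfotransferases (SULT) are cytosolic and use the sulfate donor PAPS. Glutathione S-transferases (GST) join glutathione to electrophiles such as epoxides and lipid peroxidation products, and in rat liver the alpha (Gsta) and mu (Gstm) classes are abundant and inducible by foreign compounds, partly through the transcription factor NRF2.

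Values are log2 processed signals relative to the 75th percentile of their own array, so that 0 is the 75th percentile and 1 unit is a doubling. A fold change is high-fat minus chow on that scale, given with its standard error (SE) and a p-value adjusted by the Benjamini-Hochberg method over all 25632 probes tested with limma. Of the 55 probes, 53 (47 genes) were bright enough to test. The probes of Sult1d1 and Sult2b1, sulfotransferases best known from other tissues, were not well above background on any array and were not tested. The textbook liver members Ugt1a1, Ugt2b17 and Sult1e1 had no matched probe and were not analysed here. Each scan image held 1 diet: high-fat 1 and 4 came from scan 1, high-fat 2, 3 and 5 from scan 2, and chow 1 to 3 from scan 3, so scan and diet cannot be told apart. The 8 hepatocyte markers checked, albumin (Alb) and transthyretin (Ttr) among them, were all above background on every array, as the liver label requires.

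Conjugation enzyme probes passed the test about as often as tested probes in general. With a threshold of 0.05 on the adjusted p, 2 of the 53 probes rose on the high-fat diet and 0 fell. That is 3.77%, close to the 3.45% of all tested probes called in either direction (3.00% higher and 0.453% lower). The probes that rose were 1 of the 2 probes for Gsta3, an alpha-class glutathione transferase, and the probe for Sult1c2, a cytosolic sulfotransferase. At an unadjusted p under 0.05 there were 8 of 53 (6 higher and 2 lower), against 20.1% of all tested probes. For 4 of 53 probes the 2 diets did not overlap, against 16.9% of all tested probes. Among these, Gsta3 (A_64_P035291) and Sult1c2 were higher and Mgst3 and Gsto1 lower, where the array as a whole had 7.94% higher and 8.97% lower. The fold changes lay above 0 for 28 probes and below 0 for 25, with a median of 0.014 (all tested probes 0.0012), and 44 of 53 lay within 0.5 of 0. For 41 of the 53 the 95% interval of the fold change lay wholly within 1 log2 unit of 0, and for the other 12 it reached further. In whole-tissue RNA, fewer cells of a type and less RNA per cell cannot be told apart, which applies to every value below.

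**Figure D1:**
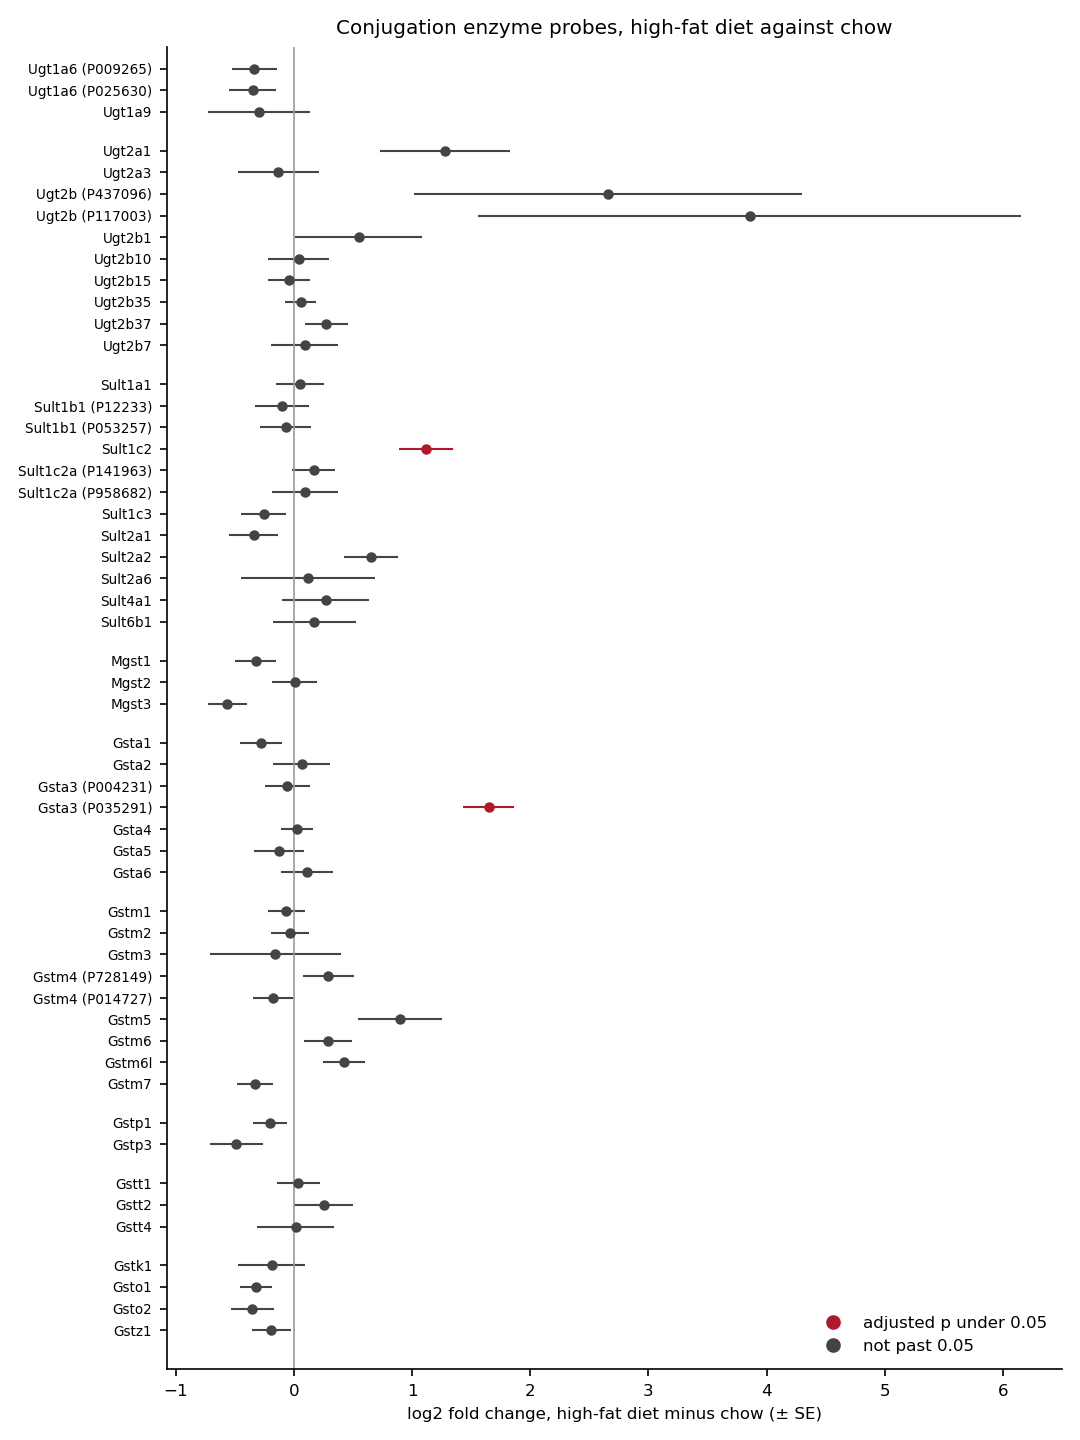
Fold change of each tested probe (x axis, log2 units, high-fat diet minus chow; bars are ± SE), grouped by family from Ugt1 at the top to Gstk, Gsto and Gstz at the bottom; probe numbers are added where a gene has more than 1 probe. Of the 53 points, 2 (red) passed the adjusted threshold, and the wide bars in the upper part belong to both Ugt2b probes.

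Of the 53 tested probes, 30 were in the brightest of 10 equal bins of all tested probes. Fold changes on these arrays ran with brightness, with a median of 0.53 over the dimmest bin and of -0.24 over the brightest one. High-fat arrays also had more probes well above background (79.1% to 92.8%) than chow arrays (66.9% to 71.8%). The part of this slope in the members' fold changes was not tested, and small negative values of bright members such as Gsta1 or Mgst1 stand beside a median of -0.24 for probes of like brightness.

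**Figure D2:**
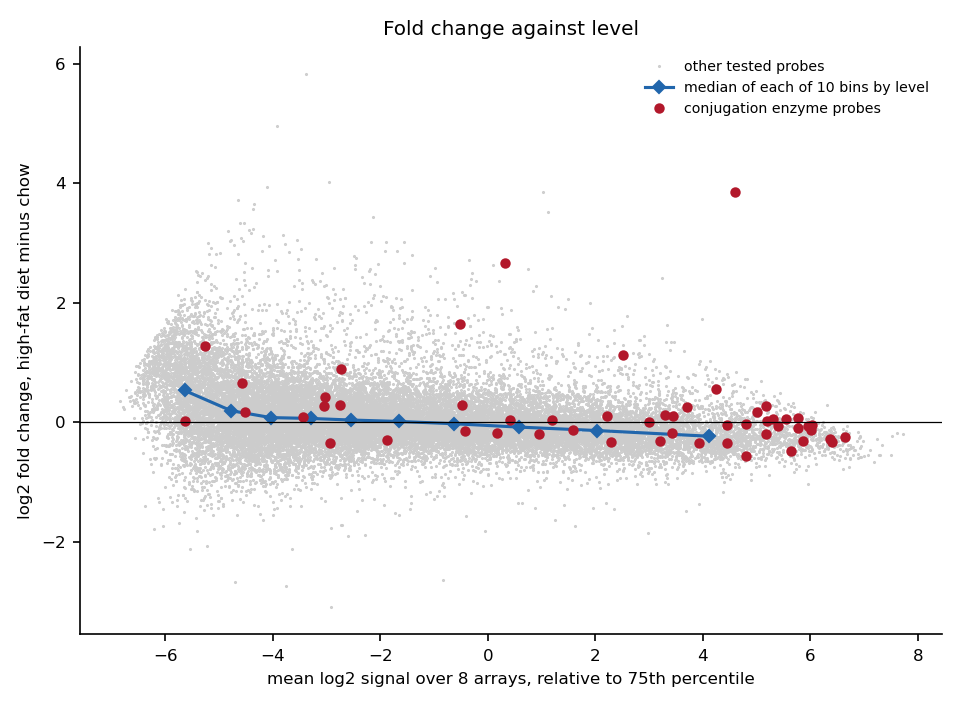
Fold change (y axis, log2 units, high-fat diet minus chow) against mean level over the 8 arrays (x axis, log2 signal relative to the array's 75th percentile) for all tested probes (grey) and the 53 conjugation enzyme probes (red). Diamonds join the medians of 10 equal bins of probes by level, which run from 0.53 to -0.24, and 30 red points lie in the brightest bin.

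Among the glucuronosyltransferases, the Ugt1 probes all read slightly lower on the high-fat diet, and none passed the test. Ugt1a6, which conjugates planar phenols, was read by 2 probes with fold changes of -0.34 ± 0.19 (SE) and -0.35 ± 0.20, at adjusted p of 0.368 and 0.360. For the first probe the levels were 6.45, 6.16, 6.23, 6.48 and 6.10 on high-fat arrays, against 6.53, 6.32 and 7.00 on chow arrays. Chow 1 and chow 3 were above every high-fat array, and chow 2 lay within the high-fat range. Ugt1a9, which handles bulky phenols, read -2.60, -2.20, -0.57, -2.49 and -2.05 on high-fat arrays, against -1.87, -1.55 and -1.63 on chow arrays. High-fat 3 stood above all other arrays for Ugt1a9, and the fold change was -0.30 ± 0.43 (adjusted p = 0.760). Without high-fat 3 it was -0.65 (adjusted p = 0.131). With the scan 1 high-fat arrays alone it was -0.86 and passed the threshold (adjusted p = 0.0457), and with the scan 2 high-fat arrays alone it was 0.077 (adjusted p = 0.913). The scan 1 fit called 968 of 25610 probes lower, against 116 of 25632 in the fit of all arrays.

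The Ugt2 family, with 10 probes for 9 genes that conjugate steroids, bile acids and many drugs in the liver, had no probe past the test. The median fold change was 0.18. Ugt2b15 and Ugt2b35 were bright and differed little in mean between diets. Ugt2b15, a testosterone-conjugating form in rat, had levels of 6.02, 6.03, 5.83, 6.18 and 5.98 on high-fat arrays, against 6.31, 5.69 and 6.14 on chow arrays. The fold change of Ugt2b15 was -0.041 ± 0.17, with a 95% interval of -0.44 to 0.36. Ugt2b35 spanned 5.27 to 5.43 on high-fat arrays and 5.10 to 5.42 on chow arrays, the narrowest spread of the family on the high-fat diet. Ugt2b37 spanned 4.89 to 5.59 on high-fat arrays and 4.82 to 5.11 on chow arrays, with a fold change of 0.27 ± 0.18 (adjusted p = 0.449). Ugt2b1, a rat form that glucuronidates morphine and testosterone, varied more within a diet than between diets: 4.78, 4.34, 2.99, 5.38 and 4.80 on high-fat arrays, against 4.63, 3.11 and 3.99 on chow arrays. High-fat 3 and chow 2 were the low arrays, and the fold change of 0.55 ± 0.54 did not pass (adjusted p = 0.631). Ugt2a3, Ugt2b10 and Ugt2b7 had fold changes of -0.13, 0.040 and 0.090, with overlapping diets.

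Both probes of Ugt2b, the gene known in rat as the androsterone glucuronosyltransferase Ugt2b2, were at background on 1 array and bright on the other 7. Probe A_64_P117003 read 6.25, 6.13, 5.58, 6.33 and 5.97 on high-fat arrays, against 6.09, 5.80 and -5.30 on chow arrays. Probe A_44_P437096 read 2.09, 1.76, 0.20, 1.38 and 1.12 on high-fat arrays, against 0.96, 1.56 and -6.57 on chow arrays. Chow 3 was the low array for both. In processed signal, the brighter probe gave 49970 to 63464 on high-fat arrays, 20437 and 31048 on chow 1 and 2, and 7.07 on chow 3. No spot of either probe carried an outlier flag, and on chow 3 the median spot signal was 53 over a local background of 23 for A_64_P117003, and 42 over 22 for A_44_P437096. The fold changes, 3.86 ± 2.30 for A_64_P117003 (adjusted p = 0.395) and 2.66 ± 1.64 for A_44_P437096 (adjusted p = 0.412), rest on that array. Without chow 3 they were 0.11 (adjusted p = 0.895) for A_64_P117003 and 0.049 (adjusted p = 0.980) for A_44_P437096. Over all tested probes, a single array lay more than 4 log2 units below the other 7, with those 7 above background, for 4 probes: 3 on chow 3 and 1 on high-fat 4. The third on chow 3, A_64_P116996, read -6.46 there and has no symbol here. Inherited lack of androsterone glucuronidation through loss of this gene is known as background in some Wistar rats, but the labels give no strain, and whether the chow 3 sample came from an animal with such a variant was not tested.

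**Figure D3:**
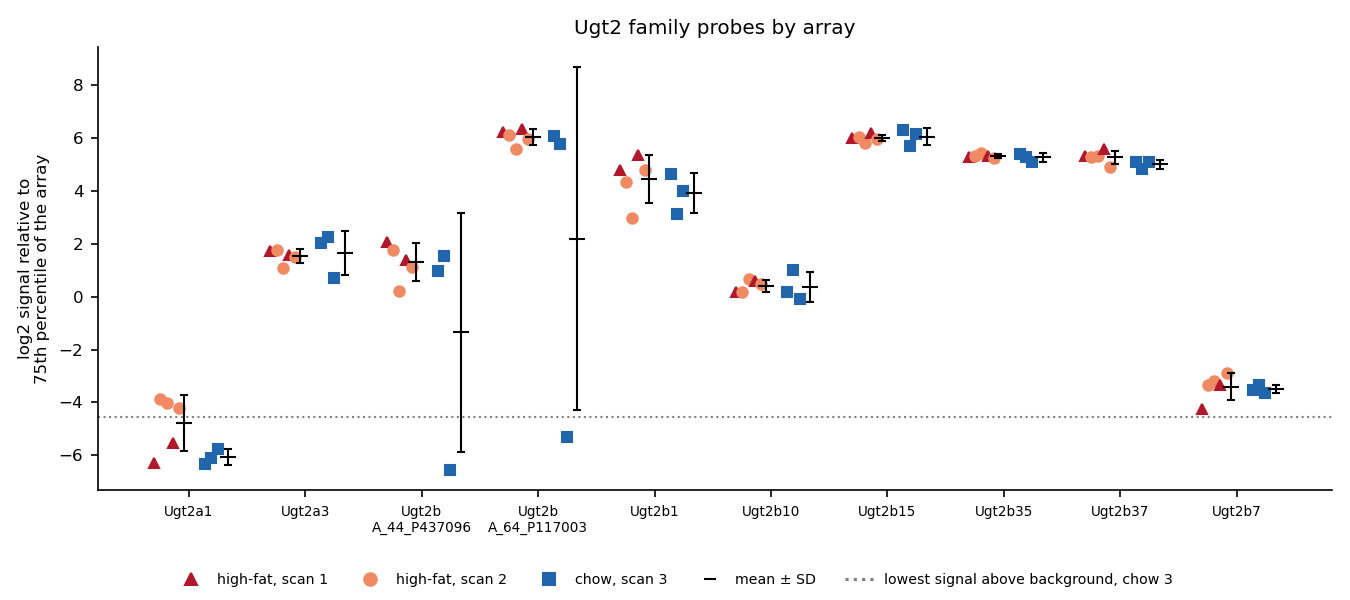
Level of each Ugt2 family probe (y axis, log2 signal relative to the array's 75th percentile) on high-fat arrays (left of each pair; triangles scan 1, circles scan 2) and chow arrays (right, squares), with mean ± SD beside them. The Ugt2b probes read -5.30 and -6.57 on chow 3, below the dotted line at the lowest signal above background on that array, and 0.20 or more on all other arrays.

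Ugt2a1, a form best known from olfactory tissue, was above background on 3 high-fat arrays and 0 chow arrays. It read -6.28, -3.89, -4.02, -5.53 and -4.23 on high-fat arrays, against -6.34, -6.10 and -5.76 on chow arrays. The 3 higher arrays were exactly the high-fat arrays of scan 2. Because no chow array measured it, its fitted value is not read as a fold. The high-fat mean was 1.07-fold above the lowest detectable signal of the chow arrays. That mean includes high-fat 1 and 4, which were not above background, so it gives no firm bound. The fitted difference did not pass (adjusted p = 0.242). It turned to -0.31 after normexp background correction, where the median of all tested probes was -0.30. With the scan 2 high-fat arrays alone the fitted difference passed (adjusted p = 0.00322), and with those of scan 1 alone it did not (adjusted p = 0.744). The scan 2 fit called 2759 of 25632 probes higher, against 768 in the fit of all arrays. Both single-scan fits use chow values at background. Testing required at least 3 arrays above background, and Ugt2a1 met this only through the scan 2 high-fat arrays. The pass with those arrays was thus favoured by the filter and is not read as support for a difference. The fitted value of Ugt2a1 enters the counts and medians given here.

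The sulfotransferases held the clearest single rise outside the glutathione transferases. Sult1c2, a member of the SULT1 family, which acts mainly on phenols, read 3.29, 3.08, 2.87, 2.85 and 2.58 on high-fat arrays, against 1.40, 2.23 and 1.83 on chow arrays. All 5 high-fat arrays were above all 3 chow arrays. The high-fat mean was 2.93 ± 0.27 (SD, n = 5) and the chow mean 1.82 ± 0.42 (SD, n = 3), a fold change of 1.12 ± 0.23 (SE), or 2.17-fold higher, with an adjusted p of 0.0375 by limma. With 1 array left out the fold change ran from 0.91 to 1.32, and diets that do not overlap fix its sign in advance. The adjusted p ranged from 0.0441 to 0.135 in these fits. It passed 0.05 only without high-fat 5 (1.21) or without chow 2 (1.32), and missed it without high-fat 1 (1.03), 2 (1.08), 3 (1.13) or 4 (1.14) and without chow 1 (0.91) or 3 (1.12). The call was also lost when scan was fitted as a random block (1.13, adjusted p = 0.512) and with the scan 1 high-fat arrays alone (1.25, adjusted p = 0.0613). It held with the scan 2 high-fat arrays alone (1.03, adjusted p = 0.0416), a fit that called 2759 of 25632 probes higher.

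The related gene Sult1c2a, on the same chromosome, had 2 probes with fold changes of 0.17 ± 0.18 and 0.095 ± 0.28, at adjusted p of 0.669 and 0.894, with overlapping diets. For the brighter of these probes the levels spanned 4.84 to 5.41 on high-fat arrays and 4.69 to 5.04 on chow arrays. The difference between Sult1c2 and Sult1c2a was itself not tested. Sult1c3, a rat liver form that activates N-hydroxy-2-acetylaminofluorene, ranged from 6.42 to 6.70 on high-fat arrays and from 6.37 to 7.09 on chow arrays (-0.26 ± 0.19, adjusted p = 0.492).

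The main liver sulfotransferases did not pass the test. Sult1a1, the phenol sulfotransferase, had a fold change of 0.050 ± 0.20 (adjusted p = 0.924); its spot on high-fat 4 carried an outlier flag, and the fit used the other 7 arrays. The 2 probes of Sult1b1, which sulfates thyroid hormones, had fold changes of -0.10 and -0.070. Sult2a1, the hydroxysteroid and bile acid sulfotransferase, read 4.21, 3.92, 4.26, 4.73 and 4.44 on high-fat arrays, against 4.39, 4.74 and 4.83 on chow arrays. Those diets overlapped (-0.34 ± 0.21, adjusted p = 0.399). Sult2a6, of the same subfamily, read 3.63, 3.64, 2.05, 3.62 and 3.75 on high-fat arrays, against 3.28, 4.39 and 1.99 on chow arrays. One array of each diet was low and the fold change was 0.12 ± 0.57 (adjusted p = 0.936). Sult2a2 was dim, above background on 5 high-fat arrays and 1 chow array, with a fold change of 0.65 ± 0.23 (adjusted p = 0.164). After normexp background correction the Sult2a2 value turned to -0.44, where the median of all tested probes was -0.30. Sult4a1, a sulfotransferase mainly known from brain, and Sult6b1 were also dim, at 0.27 and 0.17.

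The microsomal glutathione transferases are membrane enzymes, unrelated in sequence to the cytosolic GST classes. Mgst3, which reduces lipid hydroperoxides and can make leukotriene C4, read 4.85, 4.60, 4.44, 4.63 and 4.43 on high-fat arrays, against 5.10, 4.97 and 5.40 on chow arrays. All 5 high-fat arrays were below all 3 chow arrays, by 0.57 ± 0.16 (SE) in the fit, and the difference did not pass (fold change -0.57, adjusted p = 0.108). It passed only with the scan 2 high-fat arrays alone (-0.67, adjusted p = 0.0453), a fit that called 402 of 25632 probes lower. Mgst1, the abundant liver form that defends membranes against peroxidation, spanned 5.55 to 5.88 on high-fat arrays and 5.70 to 6.26 on chow arrays (-0.32 ± 0.17, adjusted p = 0.334). Mgst2 was flat, at 0.0049 ± 0.19.

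Of the alpha-class transferases, 1 probe of Gsta3 showed the largest change among all members that were measured on every array of both diets and did not rest on a single array. Gsta3 encodes a subunit of a rat enzyme studied for its action on the epoxide of aflatoxin B1. Probe A_64_P035291 read 0.35, -0.12, -0.12, 0.52 and -0.16 on high-fat arrays, against -1.33, -1.50 and -1.83 on chow arrays. Every high-fat array was above every chow array. Its high-fat mean was 0.094 ± 0.32 (SD, n = 5) and its chow mean -1.55 ± 0.25 (SD, n = 3), a fold change of 1.65 ± 0.22 (SE), or 3.13-fold higher, with a 95% interval of 1.15 to 2.14 and an adjusted p of 0.00624 by limma. It passed whichever array was left out (1.51 to 1.76, limma adjusted p 0.0114 to 0.0321). It also passed with the scan 1 high-fat arrays alone (1.99) and with those of scan 2 alone (1.42). Those fits called 1036 of 25610 (scan 1) and 2759 of 25632 (scan 2) probes higher, against 768 in the fit of all arrays. Both use the same 3 chow arrays. With scan as a random block the value was 1.68 and the adjusted p 0.0684, so the call was lost. The call was also lost with the replicate number as a block.

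The second Gsta3 probe, A_64_P004231, is assigned to the same transcript accession. It read 4.57, 4.31, 4.52, 4.72 and 3.99 on high-fat arrays, against 4.50, 4.34 and 4.60 on chow arrays. The diets overlapped, and the fold change was -0.055 ± 0.19 with a 95% interval of -0.49 to 0.38 (adjusted p = 0.908). The intervals of the 2 probes do not overlap, and the rise is given here for A_64_P035291 alone. The files used here hold no probe sequences, so the exons each probe reads, and any match to a near-identical alpha-class copy, were not analysed here.

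**Figure D4:**
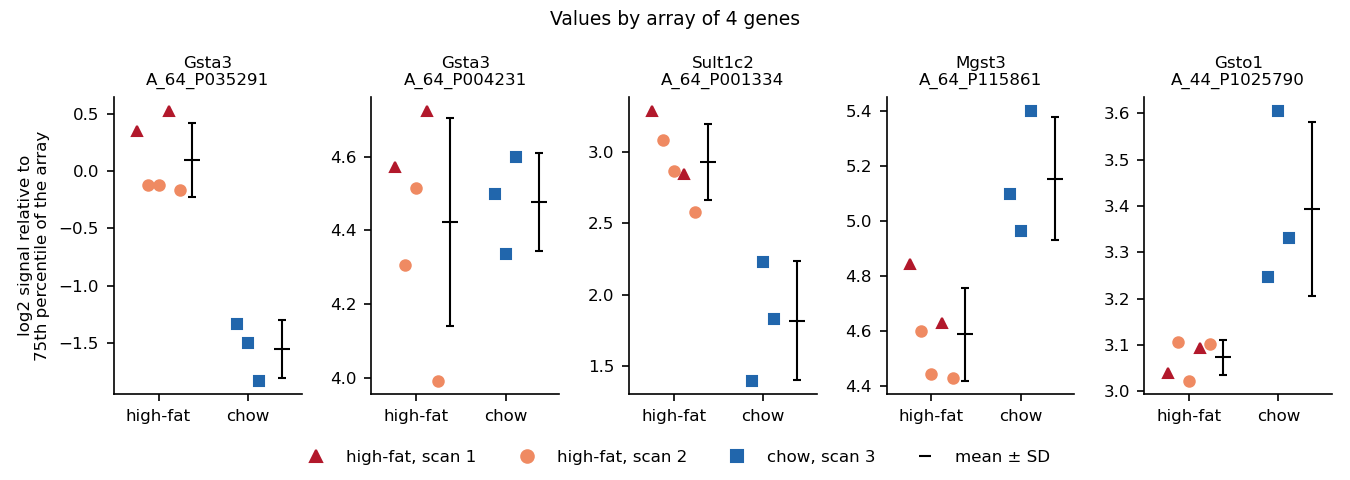
Level by array (y axes, log2 signal relative to the array's 75th percentile, each panel on its own scale) for both Gsta3 probes, Sult1c2, Mgst3 and Gsto1, with high-fat arrays left (triangles scan 1, circles scan 2), chow arrays right (squares), and mean ± SD beside each group. Diets are separate for A_64_P035291, Sult1c2, Mgst3 and Gsto1 and overlap for A_64_P004231.

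The promoters of the genes with a called probe are shown because their regulation by NRF2 and liver factors is the usual question asked of them. Windows run from 250 bases before to 50 after an annotated start site, from RefSeq on GRCr8, and 43 of the 49 member genes matched one (45 windows). Gsta3 has 2 annotated starts on the plus strand of chromosome 9, and Sult1c2 has 1 on the same chromosome. Capitals mark matches on either strand to the antioxidant response element core TGACNNNGC or to the HNF1 half-site GTTAAT (on the other strand, ATTAAC).
Gsta3 chr9:31154739-31155038 (+): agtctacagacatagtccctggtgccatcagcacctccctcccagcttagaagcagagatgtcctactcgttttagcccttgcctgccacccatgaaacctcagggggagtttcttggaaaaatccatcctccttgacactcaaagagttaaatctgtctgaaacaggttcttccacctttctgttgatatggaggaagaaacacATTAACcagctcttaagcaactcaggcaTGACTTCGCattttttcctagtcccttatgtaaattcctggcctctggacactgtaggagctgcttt
Gsta3 chr9:31166793-31167092 (+): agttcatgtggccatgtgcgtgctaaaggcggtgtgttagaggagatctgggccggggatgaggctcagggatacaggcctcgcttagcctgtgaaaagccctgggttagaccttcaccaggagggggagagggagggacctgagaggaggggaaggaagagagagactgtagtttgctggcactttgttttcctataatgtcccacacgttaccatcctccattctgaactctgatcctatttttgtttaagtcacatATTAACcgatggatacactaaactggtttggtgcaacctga
Sult1c2 chr9:7436731-7437030 (+): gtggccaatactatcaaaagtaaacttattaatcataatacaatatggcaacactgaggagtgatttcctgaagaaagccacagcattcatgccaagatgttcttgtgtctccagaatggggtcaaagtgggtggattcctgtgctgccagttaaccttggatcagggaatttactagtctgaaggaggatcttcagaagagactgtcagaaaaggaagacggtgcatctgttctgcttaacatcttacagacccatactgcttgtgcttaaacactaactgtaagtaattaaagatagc

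The first Gsta3 window held TGACTTCGC starting at position -17 from the start site and an ATTAAC at -45. The second held only an ATTAAC, at position 9, and the Sult1c2 window held no match to any motif searched. Across the members, 7 of 45 windows (15.6%) held TGACNNNGC, among them those of Gsta1, Gsta2, Gstp1 and Gstz1, against 12.1% of all 33469 windows. The half-site GTTAAT was in 8 of 45 (17.8%), against 7.45% of all windows. The xenobiotic response element core TNGCGTG was in 2 of 45 (4.44%, Gsta2 and Gsta6) against 4.89%, and the nuclear receptor direct repeat DR1 (AGGTCA repeated after a gap of 1 base) was in 0 of 45 against 0.0538%. A match is only a run of letters, and none of these shares was tested.

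The other alpha-class members did not pass. Gsta1 and Gsta2, the classical inducible liver subunits, had fold changes of -0.28 ± 0.18 (adjusted p = 0.437) and 0.067 ± 0.24 (adjusted p = 0.913). Gsta1 read 6.36, 6.21, 6.18, 6.47 and 6.11 on high-fat arrays, against 6.68, 6.17 and 6.77 on chow arrays, with chow 2 inside the high-fat range. Gsta4, which conjugates the lipid peroxidation product 4-hydroxynonenal, was among the steadiest members. It spanned 5.08 to 5.28 on high-fat arrays and 5.01 to 5.31 on chow arrays, and the fold change was 0.024 with a 95% interval of -0.28 to 0.33. Gsta5 and Gsta6 stood at -0.13 and 0.11.

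The mu class had no probe past the test, with a median of -0.035 over 9 probes. Gstm1, the main mu-class subunit of rat liver, ranged from 5.30 to 5.50 on high-fat arrays and from 5.15 to 5.72 on chow arrays (-0.063 ± 0.16, adjusted p = 0.874). Gstm2 was at -0.035 ± 0.16 (adjusted p = 0.932). Gstm3 split within each diet, with 0.19, 0.36, -0.025, -1.43 and -1.48 on high-fat arrays, against 0.54, -0.37 and -1.13 on chow arrays. High-fat 4 and 5 and chow 3 were its low arrays, the fold change was -0.16 ± 0.55, and this split followed neither diet nor scan. Gstm5, a form better known from brain and testis, had the largest mu-class value at 0.90 ± 0.36 (adjusted p = 0.212). Chow 1, at -4.12, was its lowest array, and without chow 1 the value was 0.48 (adjusted p = 0.521). Gstm6l was at 0.42 ± 0.18 (adjusted p = 0.237). Gstm4 was read by 2 probes on either side of 0 (0.29 and -0.18), and Gstm7 lay at -0.33 ± 0.15 (adjusted p = 0.271).

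Gstp1, the pi-class form that marks preneoplastic foci in rat liver, read lower in the mean on the high-fat diet without passing the test. Its levels were 0.75, 0.83, 0.83, 1.03 and 0.94 on high-fat arrays, against 1.00, 0.96 and 1.28 on chow arrays. The diets overlapped, and the fold change was -0.20 ± 0.14 with a 95% interval of -0.53 to 0.12 (adjusted p = 0.473). Gstp3 spanned 5.15 to 5.64 on high-fat arrays and 5.43 to 6.33 on chow arrays (-0.49 ± 0.22, adjusted p = 0.269). In the theta class, whose members act on halogenated small molecules, Gstt1 and Gstt2 had fold changes of 0.037 ± 0.18 and 0.25 ± 0.25. Gstt4 was above background on 4 high-fat arrays and 0 chow arrays, and its high-fat mean did not exceed the lowest detectable chow signal. Its fitted value of 0.014 enters the counts, medians and ranges given here but is not read as a fold.

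Of the remaining classes, Gsto1, an omega-class enzyme that reduces dehydroascorbate, had the smallest spread of any member on the high-fat diet (SD 0.038). It read 3.04, 3.11, 3.02, 3.10 and 3.10 on high-fat arrays, against 3.25, 3.60 and 3.33 on chow arrays. All high-fat arrays were below all chow arrays, but the fold change of -0.32 ± 0.14 did not pass (adjusted p = 0.237). Gsto2 was at -0.35 ± 0.18 (adjusted p = 0.327). Gstz1, which isomerises maleylacetoacetate in tyrosine breakdown, was at -0.19 ± 0.17 (adjusted p = 0.579). Gstk1, the mitochondrial and peroxisomal kappa form, was at -0.19 ± 0.29 over 7 arrays, because its spot on high-fat 4 was flagged as an outlier and dropped.

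The high-fat arrays came from scan 1, made on a different day from scans 2 and 3, and from scan 2, so that scan and day cannot be told apart within the high-fat diet. For 19 of the 53 probes the scan 1 high-fat arrays were both above all scan 2 ones, against 20.4% of all tested probes, and for 7 they were both below, against 38.2%. All 7 alpha-class probes were higher in scan 1, with a median gap of 0.38, where all tested probes had a median of -0.16 and the brightest bin 0.23. In that brightest bin 1467 of 2564 probes were higher in scan 1. Gsta3 probe A_64_P035291 shared this gap (0.57), and it was 1.42 above chow on the scan 2 arrays alone. That probe, with means of 0.094 on high-fat and -1.55 on chow arrays, was dimmer than the brightest bin. No gap is given here for probes of its level.

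**Figure D5:**
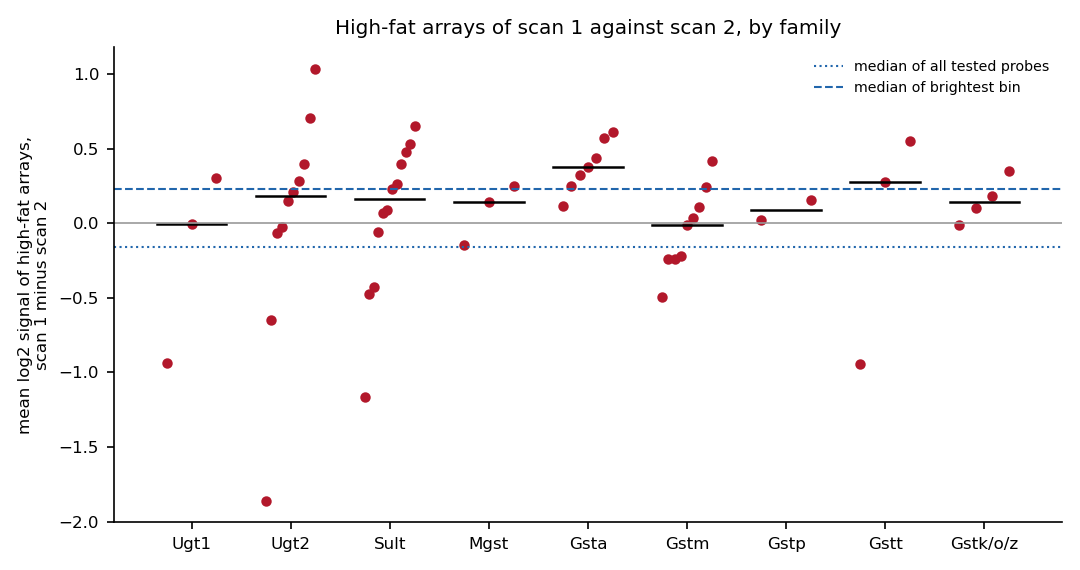
Difference within the high-fat diet between the mean of scan 1 arrays (high-fat 1 and 4) and of scan 2 arrays (high-fat 2, 3 and 5) for each tested probe (y axis, log2 units), by family; short lines are family medians. All 7 Gsta points lie above 0, with a median of 0.38, against -0.16 for all tested probes (dotted) and 0.23 for the brightest bin (dashed).

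Genes around these enzymes were read in the same fit, where 3.00% of all tested probes were called higher and 0.453% lower with a median of 0.0012; the lists are given by counts and medians, and none was tested as a list. Among 17 other conjugation enzymes measured (median -0.046), 0 rose and 1 fell: Nnmt, which methylates nicotinamide, at -1.04 ± 0.20 (adjusted p = 0.0292). Of 18 genes that supply UDP-glucuronate, PAPS or glutathione (median 0.065), 1 rose and 0 fell. The gene that rose was Gclm, the modifier subunit of glutamate-cysteine ligase. It read -0.74, -1.90, -1.69, -0.0049 and -1.66 on high-fat arrays, whereas no chow array measured it above background. The high-fat mean was at least 12.9-fold above the lowest detectable chow signal (limma adjusted p = 0.000695). The fitted value, 5.83, was the highest of all tested probes and is not read as a fold. Gclm was tested only because it was above background on high-fat arrays, so its p is not read as support. Its partner Gclc, the catalytic subunit, was at 0.15 ± 0.19 (adjusted p = 0.719). Ugdh, which makes UDP-glucuronate, was at 0.090 ± 0.17, and the 2 probes of Papss2, which makes PAPS, were at -0.54 and -0.41 without passing.

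Of 17 NRF2 targets outside the families (median 0.13), 1 rose and 1 fell. The rise was Gclm again, with the limit given above. The fall was malic enzyme Me1, at -1.05 ± 0.20 on 1 of its 2 probes (limma adjusted p = 0.0289) and -0.31 on the other. Nqo1, a standard NRF2 target, was at 0.87 ± 0.69 (adjusted p = 0.540), a value that rests on chow 1. It read -1.72 to -0.88 on high-fat arrays, against -4.30, -1.01 and -1.09 on chow arrays, so that chow 2 and 3 lay within the high-fat range. Of 15 targets of the drug-sensing receptors CAR, PXR and AHR (median -0.10), 1 rose and 0 fell. The gene that rose was the efflux pump gene Abcb1b at 3.85 ± 0.56 (adjusted p = 0.00995), and its other probe was at 0.67 (adjusted p = 0.120). None of the 18 measured regulators passed, in either direction (median 0.090). Nfe2l2, which encodes NRF2, was at 0.36 ± 0.17 (adjusted p = 0.274), and the 2 probes of Nr1i3, which encodes CAR, were at 0.76 and 0.97. Of 9 deconjugating and epoxide-hydrolysing genes (median -0.079), 0 fell and 1 rose, Bche at 1.25 ± 0.21 (adjusted p = 0.0164). None of the 9 measured transporters that export conjugates or take up their parents passed (median -0.070).

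Cell type markers gave these values beside the results. The summed linear level of the 8 hepatocyte markers was 495 to 568 on high-fat arrays and 529 to 839 on chow arrays, and 0 of 8 passed, with a median fold change of -0.40. All 8 fold changes lay below 0, beside a median of -0.24 over the brightest bin of tested probes. The part of brightness in these values was not tested. Of 3 measured intestinal markers (median fold change 0.028), 1 fell, Fabp2 at -1.04 (adjusted p = 0.0140), while Vil1 was at 0.24 and the 2 probes of Alpi at 0.41 and -0.19 without passing. Their summed level was 0.884 to 0.986 on high-fat arrays and 1.28 to 1.76 on chow arrays. In 9 further cell type lists no marker passed. The part of other cells in the rise of Sult1c2 and of the Gsta3 probe was not tested.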

How the data were processed

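Intensity values per spot were deposited as single-colour scanner output made with Agilent Feature Extraction 11.0.1.1, per the file headers, with the processed signal already background-corrected by that software. A value table of log2 values, deposited by the authors, was used only as an alternative, and its normalization is not given in the sources used here. Its columns had an equal 75th percentile (9.27) and near-equal medians (6.42), and correlated at 0.995 to 0.999 with the scanner values. Quantile normalization also makes the columns alike in distribution, so that setting and the deposited table are not counted as separate checks. The array holds 44254 spots, 42877 of them not controls. The 75th percentile of intensity, which sets what dim probes can show, was 725 to 1045 on high-fat and 278 to 559 on chow arrays; 0 spots were saturated and 331 to 550 an array carried an outlier flag and were dropped. Precision is limited by the number of arrays (5 and 3).

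From these values, log2 processed signal minus each array's 75th percentile was averaged over the spots of a probe. Probes with at least 0.5 of their spots well above background on at least 3 of 8 arrays were tested with limma 3.58.1 (lmFit and eBayes, R 4.3.3, two-sided, no covariate), with Benjamini-Hochberg adjustment over all 25632 probes and a threshold of 0.05. Accessions were matched to symbols through RefSeq (GRCr8). Probes of one gene were kept apart. The fit was checked on simulated data. Members and gene lists were chosen with earlier results of these data known. Text names were chosen by rule: probes past the threshold, the largest non-overlapping rise and fall of each family, genes whose probes disagree by more than 0.5, and textbook liver members; Ugt1a9, Ugt2a1, Ugt2b and other members outside that rule were named after their values were seen. Bounds for probes at background use the lowest signal above background on each array. Alternatives were normexp background correction (offset 50, on median spot and local background signals), quantile normalization, the deposited table, other filters, 1 probe a gene, scan as a random block, single scans, replicate number as a block and leaving out each array. Replicate numbers gave no clear pairing of the samples. Deviations of same-numbered arrays correlated at 0.045, 0.035 and 0.061, and those of unlike-numbered arrays at -0.115 to 0.054. Results of the cholangiocyte and kidney marker lists are not reported here.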

Additional observations from a re-analysis of the deposited data

Results flagged for a closer look

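In 3 of 53 tested member probes, 1 high-fat array stood apart from the other 4 by Dixon's test, where chance flags about 1 in 20 groups; no flag concerned a probe that passed the diet comparison, and the groups of 3 chow arrays were not tested. Ugt1a9 read -0.57 on high-fat 3, above the -2.60 to -2.05 of the other high-fat arrays. Sult2a6 read 2.05 on high-fat 3, below the 3.62 to 3.75 of the others. Sult4a1 read -1.79 on high-fat 5, above the -3.31 to -3.19 of the others. Of the 3 flags, 2 were on high-fat 3, the array with the largest share of probes above background (92.8%).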

How the results depend on the processing

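Under the settings other than those named next, 2 member probes rose and 0 fell. The count of rises was 1 with 1 probe a gene, which keeps the brighter Gsta3 probe, 0 with scan as a random block, 0 with the replicate number as a block, and 1 or 2 when 1 array was left out. With the high-fat arrays of scan 1 alone 1 rose and 1 fell, and with those of scan 2 alone 3 rose and 1 fell. The rises with scan 2 alone include Ugt2a1, which was tested only because it was above background on those arrays. The replicate block left 0 calls over all tested probes and gave 1.59 for Gsta3 (A_64_P035291, adjusted p = 0.0617) and 1.26 for Sult1c2 (adjusted p = 0.151), so both calls were lost, with no clear pairing shown by the numbers.

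Over all tested probes, 768 rose and 116 fell. The counts were 122 and 14 after normexp, where the median of all probes was -0.30 and relative to it Gsta3 (A_64_P035291) stood at 1.58 and Sult1c2 at 1.69. They were 849 and 306 after quantile normalization, 898 and 339 in the authors' deposited table, 762 and 446 with no filter on dim probes, 393 and 146 for probes above background on all 8 arrays, and 76 and 0 with scan as a random block. They were 1036 and 968 with scan 1 alone, 2759 and 402 with scan 2 alone, and 384 to 807 and 16 to 91 when 1 array was left out.

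The Mgst median was -0.14 after normexp, -0.048 after quantile normalization, -0.047 in the authors' deposited table and -0.50 to -0.23 with 1 array left out. The Gstm median was 0.16 after quantile normalization, 0.16 in the authors' deposited table and -0.097 to 0.17 with 1 array left out. The Gstt median was 0.20 with scan 1 alone and 0.010 to 0.22 with 1 array left out, and the Gstk, Gsto and Gstz median was -0.096 after quantile normalization.

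With normexp background correction, the sign turned to 0.093 for Gsta3 (A_64_P004231), 0.20 for Sult1b1 (A_43_P12233), 0.051 for Sult1b1 (A_64_P053257), 0.0028 for Sult1c3, 0.064 for Sult2a1, -0.12 for Gsta4 and 0.023 for Gstm3. The median of all tested probes in that setting was -0.30. With quantile normalization, the sign turned to 0.15 for Gsta3 (A_64_P004231), 0.14 for Sult1b1 (A_43_P12233), 0.19 for Sult1b1 (A_64_P053257), 0.12 for Sult1c3, 0.040 for Gsta1, 0.14 for Gstm1, 0.16 for Gstm2 and 0.0058 for Gstk1. In the authors' deposited table, the sign turned to 0.15 for Gsta3 (A_64_P004231), 0.14 for Sult1b1 (A_43_P12233), 0.19 for Sult1b1 (A_64_P053257), 0.12 for Sult1c3, 0.040 for Gsta1, 0.14 for Gstm1 and 0.16 for Gstm2. With the high-fat arrays of scan 1 alone, the sign turned to 0.17 for Gsta3 (A_64_P004231), 0.29 for Sult1b1 (A_43_P12233), 0.25 for Sult1b1 (A_64_P053257), -0.084 for Mgst2, 0.0034 for Gstm1, 0.11 for Gstm2 and 0.018 for Gstz1. With scan as a random block, the sign turned to -0.0048 for Mgst2. With the replicate number as a block, the sign turned to -0.065 for Gsta2, 0.49 for Gstm3 and -0.020 for Gstt1. With the high-fat arrays of scan 2 alone, the sign turned to -0.11 for Gsta2, -0.022 for Gsta4 and -0.073 for Gstt1. Leaving out 1 array at a time, the ranges were -0.13 to 0.052 for Gsta3 (A_64_P004231), -0.61 to 0.17 for Ugt2a3, -0.038 to 0.21 for Sult1a1, -0.22 to 0.0096 for Sult1b1 (A_43_P12233), -0.18 to 0.043 for Sult1b1 (A_64_P053257), -0.18 to 0.11 for Mgst2, -0.18 to 0.24 for Gsta2, -0.058 to 0.089 for Gsta4, -0.21 to 0.075 for Gstm1, -0.097 to 0.051 for Gstm2, -0.56 to 0.27 for Gstm3, -0.056 to 0.22 for Gstt1 and -0.47 to 0.12 for Gstk1. The sign also turned in such fits for Sult2a6 (-0.49 to 0.71), Ugt2b10 (-0.18 to 0.36), Ugt2b15 (-0.22 to 0.090), Ugt2b7 (-0.036 to 0.30), Ugt2b35 (-0.028 to 0.13), Sult1c2a (A_44_P958682, -0.17 to 0.34), Sult4a1 (-0.019 to 0.40), Gsta5 (-0.32 to 0.070) and Gstt4 (-0.10 to 0.26). Counting every member probe of 53, the sign turned for 16 after normexp, 11 after quantile normalization, 10 in the authors' deposited table, 14 with scan 1 alone, 6 with scan 2 alone, 9 with the replicate block, 2 with scan as a random block and 22 when any 1 array was left out. None of these turned values passed the threshold in either direction, and the cause was not tested. The turned probes include bright ones such as Sult1c3 and Gsta1. As a separate limit, fold changes of dim probes depend on signal over background, which was lower on chow arrays.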
